A study of Mus musculus with 13 samples.

Results

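The genes described here encode the subunits of the mitochondrial respiratory chain and ATP synthase that are carried in the nucleus. They were chosen by name: protein-coding entries of the kidney table whose symbol opens with Nduf and a, b, c, s or v plus a digit, with Uqcr, with Cox and a digit between 4 and 8, or with Atp5, the genes Sdha, Sdhb, Sdhc and Sdhd, and Cyc1 and Cycs. The rule used names and not values, but was set with earlier results of these data known. It gave 86 of the 28183 genes listed. Of these 35 were of complex I, 4 of complex II and 9 of complex III, beside cytochrome c. Another 18 were of complex IV and 15 of complex V, and 4 carry such a name without being subunits. The same symbols were looked up in a table of mIMCD-3 cells, where 8 of 2016 genes matched. The name rule does not catch Ndufab1, and it sets aside 4 processed pseudogenes of Atp5 genes.

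Kidneys came from C57BL/6 mice that model dominantly inherited polycystic kidney disease, with 2 libraries in each of 4 groups. The Pkd1 knockout carried KSP/Cre and a floxed Pkd1 gene and was sampled at postnatal day 10, against Pkd1 f/f mice of that age without Cre. The Pkd2 knockout carried Pkhd1/Cre and a floxed Pkd2 gene and was sampled at postnatal day 20, against Pkd2 f/f mice of that age without Cre. KSP/Cre acts in tubule epithelium and Pkhd1/Cre mainly in collecting ducts, so a whole kidney also holds cells that keep the gene. All controls carry floxed alleles, and age, floxed gene and Cre driver change together between the models. In the cell experiment, mIMCD-3 cells, a mouse line from the inner medullary collecting duct, received 10 nM of an antisense gapmer that targets Hoxb3os, a long noncoding RNA (3 libraries), or a negative control gapmer (2 libraries) for 48 hours.

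The respiratory chain passes electrons from NADH and succinate to oxygen and pumps protons across the inner mitochondrial membrane, and ATP synthase uses the proton gradient to make ATP. Complex I oxidises NADH, complex II oxidises succinate, complex III reduces cytochrome c, and complex IV hands the electrons to oxygen. Apart from complex II, each complex also holds subunits made inside the mitochondrion from its own genome. In the kidney the proximal tubule and the thick ascending limb, which reabsorb most of the filtered salt and solutes, are rich in mitochondria.

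Kidney libraries held 30.7 M to 94.4 M reads, and a gene's value is an estimated read number multiplied by 1 constant per library, on a scale close to CPM. Values of the whole Pkd1 gene were 24.1 and 26.0 in Pkd1 knockouts and 31.1 and 22.7 in their controls, and those of the whole Pkd2 gene were 50.7 and 53.3 in Pkd2 knockouts and 69.0 and 61.2 in their controls; such values also count exons that are not deleted and do not check the labels. Libraries within a group were not alike in other ways. Small structural RNA took 29.2% and 13.4% of the summed values in Pkd1 knockouts against 15.9% and 23.9% in Pkd1 controls, and 23.7% and 6.42% in Pkd2 knockouts against 20.4% and 19.8% in Pkd2 controls. Summed Y-linked genes were 149 and 183 in Pkd1 knockouts against 155 and 10.4 in Pkd1 controls, and 169 and 0.0462 in Pkd2 knockouts against 0.104 and 0.0221 in Pkd2 controls. The part of these differences in the results was not tested. Counts of calls and medians over the members are also given with 1 library left out. Sums and most single genes are given for all libraries only.

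Summed over the 86 genes, nuclear-encoded respiratory chain transcripts were lower in knockout kidneys of both models. The sum was 6208 and 5312 in Pkd1 knockouts, against 7652 and 8853 in Pkd1 controls. It was 8239 and 4241 in Pkd2 knockouts, against 13590.1 and 13302 in Pkd2 controls. Both knockout libraries lay below both controls of their own model. The knockout mean was 69.8% of the control mean in the Pkd1 model (5760.1 ± 634 against 8252 ± 849, SD, n = 2 each) and 46.4% in the Pkd2 model (6240.0 ± 2827 against 13446 ± 204, SD, n = 2 each). An exact two-sided permutation test of 2 against 2 libraries cannot give a p below 0.333, which it gave in both models. Pkd2 knockout replicate 2 lay below both Pkd1 knockouts, while replicate 1 lay between the day 10 controls of the Pkd1 model. In bulk tissue, fewer cells of a type and less RNA per cell cannot be told apart.

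**Figure D1:**
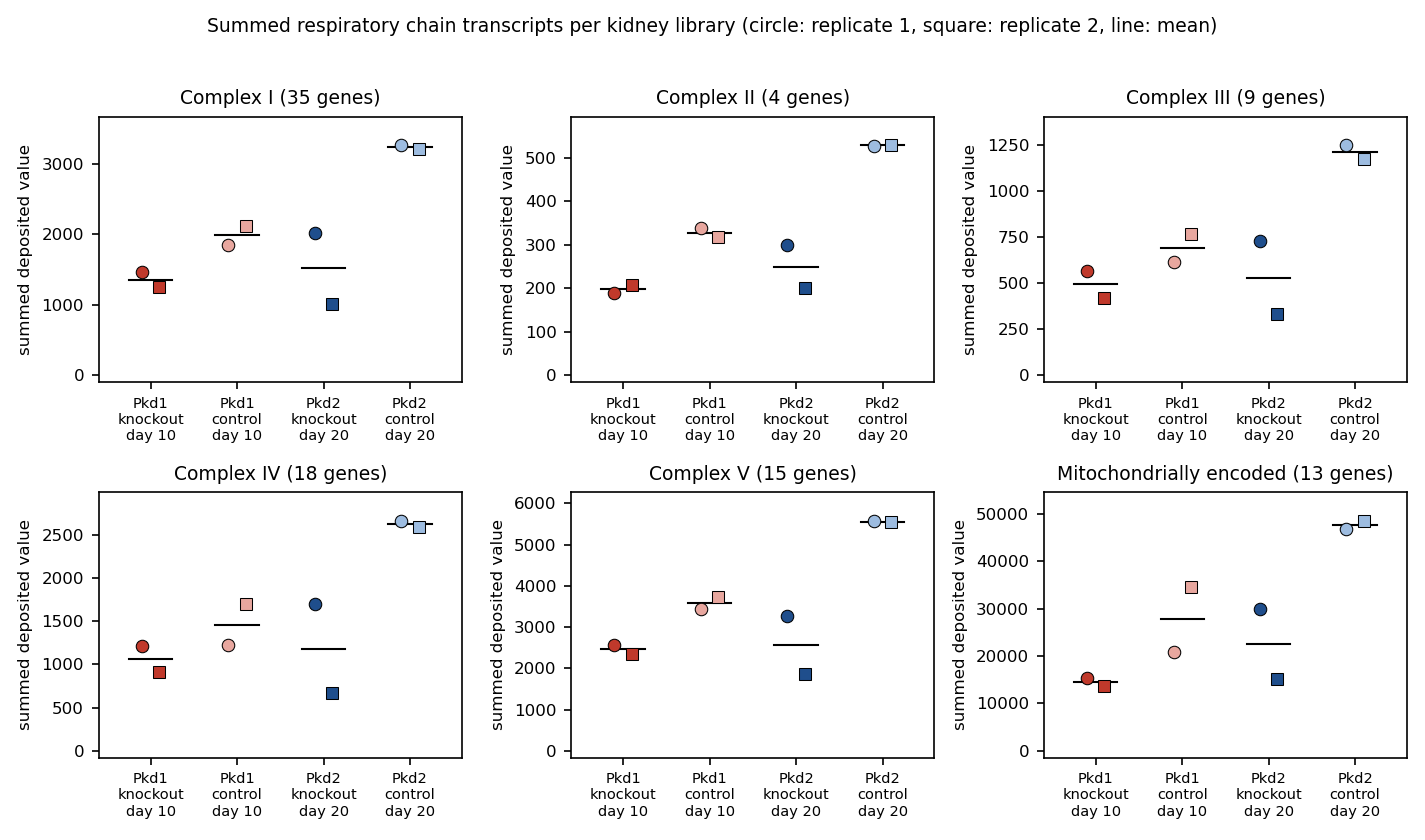
Summed deposited values (linear scale) of the nuclear-encoded members of complexes I to V and of the 13 mitochondrially encoded subunits in each kidney library. Colours mark the groups, circles replicate 1, squares replicate 2 and lines the mean of 2; Pkd2 controls stand highest in each panel, and Pkd2 knockout replicate 2 lies well below replicate 1.

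The complexes stood at similar shares of their controls. In Pkd2 knockouts the mean sum stood at 46.9% of controls for complex I, 47.3% for complex II, 43.8% for complex III, 45.1% for complex IV and 46.3% for complex V. In Pkd1 knockouts the same shares were 68.3%, 60.2%, 71.7%, 72.5% and 68.4%. Complex II, with the longest transcripts of the complexes, differed less between the Pkd2 knockout replicates than the others did: its sums were 188 and 207 in Pkd1 knockouts against 338 and 317 in Pkd1 controls, and 300.1 and 199.8 in Pkd2 knockouts against 528 and 529 in Pkd2 controls. For complex IV, by contrast, Pkd1 knockout replicate 1 (1212) stood level with Pkd1 control replicate 1 (1227).

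Levels per kilobase of transcript differed widely among the subunits. In Pkd2 controls, the group with the highest levels, Cox4i1 led with 675 units per kilobase (deposited value divided by transcript length), followed by Cox6c with 638, Atp5b with 596, Atp5h with 588 and Atp5g3 with 556. The 2 control libraries of Cox4i1 and Cox6c overlapped, as did those of Atp5b, Atp5h and Atp5g3, and these neighbours do not differ beyond their spread. The ranges of Cox6c and Atp5b did not overlap, nor did those of Atp5g3 and Atp5a1. Those of Cox6c (605 to 672) and Atp5h (560 to 616) did overlap, as did those of Atp5g3 (517 to 595) and Uqcrh (451 to 521). The order therefore holds no clean break at these places. Among the complex I subunits, Ndufb8 stood highest with 421 units per kilobase, while the core subunit Ndufs8 had 18.4. Complex II subunits ran from 21.4 for Sdhc to 123 for Sdhb. At the low end, Atp5s had 1.08 units per kilobase and Ndufa4l2 1.91, and Cox4i2 and Cox6a2 stayed below 1.

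In the test across all kidney genes, 82 of the 86 members had values high enough to be tested (at least 1 in at least 2 libraries), and the 4 others, Cox4i2, Cox6a2, Cox7b2 and Cox8c, are tissue-restricted forms of complex IV subunits. Fold changes are on the log2(value + 1) scale with the standard error of limma's fit, and a gene was called where the adjusted p over the 14637 genes tested was below 0.05. In Pkd2 knockouts 47 of the 82 were called lower and 0 higher by limma, with 74 lower and 0 higher at an unadjusted p below 0.05. Over all genes tested 8.13% were called lower and 9.54% higher, and 16.3% were lower and 16.8% higher at the unadjusted threshold. On recovered reads, edgeR called 32 lower, against 6.95% of all genes, and DESeq2 64, against 9.5%, and both called 0 members higher, against 9.33% and 11.2% of all genes. The members' median log2 fold change was -1.18, against -0.01 over all genes, and 81 of 82 values were negative. Both Pkd2 knockout libraries lay below both controls in 79 of 82 members, which 30.9% of all genes did.

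How many were called depended on the libraries. With Pkd2 knockout replicate 1 left out, 78 were called lower and the median was -1.72. Leaving out Pkd2 knockout replicate 2 gave 13 and a median of -0.66. Without Pkd2 control replicate 1 or 2, 7 and 2 were called, and without Pkd1 control replicate 1 or 2, 30 each. Each such fit has 1 library fewer to estimate the spread from. The share of all genes called in each of these fits is not given here, so the counts are not set against it. The direction was the same in each: 0 members were called higher in any of them. Ndufs1 and Uqcrc1 were called in all of these fits.

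In Pkd1 knockouts 3 of the 82 members were called lower, Atp5d, Ndufs8 and Uqcrc1, and 0 were called higher. These are shares below those over all genes, of which 5.48% were called lower and 5.11% higher. The direction was nevertheless nearly uniform among the members: 77 of 82 log2 fold changes were negative, with a median of -0.51, while the median over all genes was close to 0. Both knockouts lay below both controls in 47 of 82, and in 29.2% of all genes. At an unadjusted p below 0.05, 22 members were lower by limma, as were 14.2% of all genes. On the recovered reads edgeR called 3 lower, against 5.55% of all genes, and DESeq2 12, against 8.11%. The 3 calls were lost when either Pkd1 knockout or either Pkd1 control was left out, or Pkd2 control replicate 1, which left 0 called, and Atp5d alone was called without Pkd2 control replicate 2. Without Pkd2 knockout replicate 1 or 2, 22 and 20 members were called lower in the Pkd1 model, since those libraries feed the shared estimate of the spread.

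The log2 fold change was lower in the Pkd2 model than in the Pkd1 model for 81 of the 82 members, with a median difference between the effects of 0.64 on the log2 scale. The test of that difference called 0 of the 82 members (limma, lowest adjusted p = 0.251), and 6 passed at an unadjusted p below 0.05. Over all genes it called 0.00683%, and 8.25% passed at the unadjusted threshold, so the share of members is near that of all genes. DESeq2 and edgeR on the recovered reads also called 0 members. The models differ in age, Cre driver and gene, and which of these goes with the larger fall cannot be told apart. The 3 members called in Pkd1 knockouts were also among the 47 called in Pkd2 knockouts. These comparisons use separate libraries but a shared estimate of each gene's spread, so the calls are not independent. With each model fitted alone, 2 of the 3 stayed called in the Pkd1 model. Both knockouts lay below both controls in each model for 47 members, as they did for 19.4% of all genes.

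**Figure D2:**
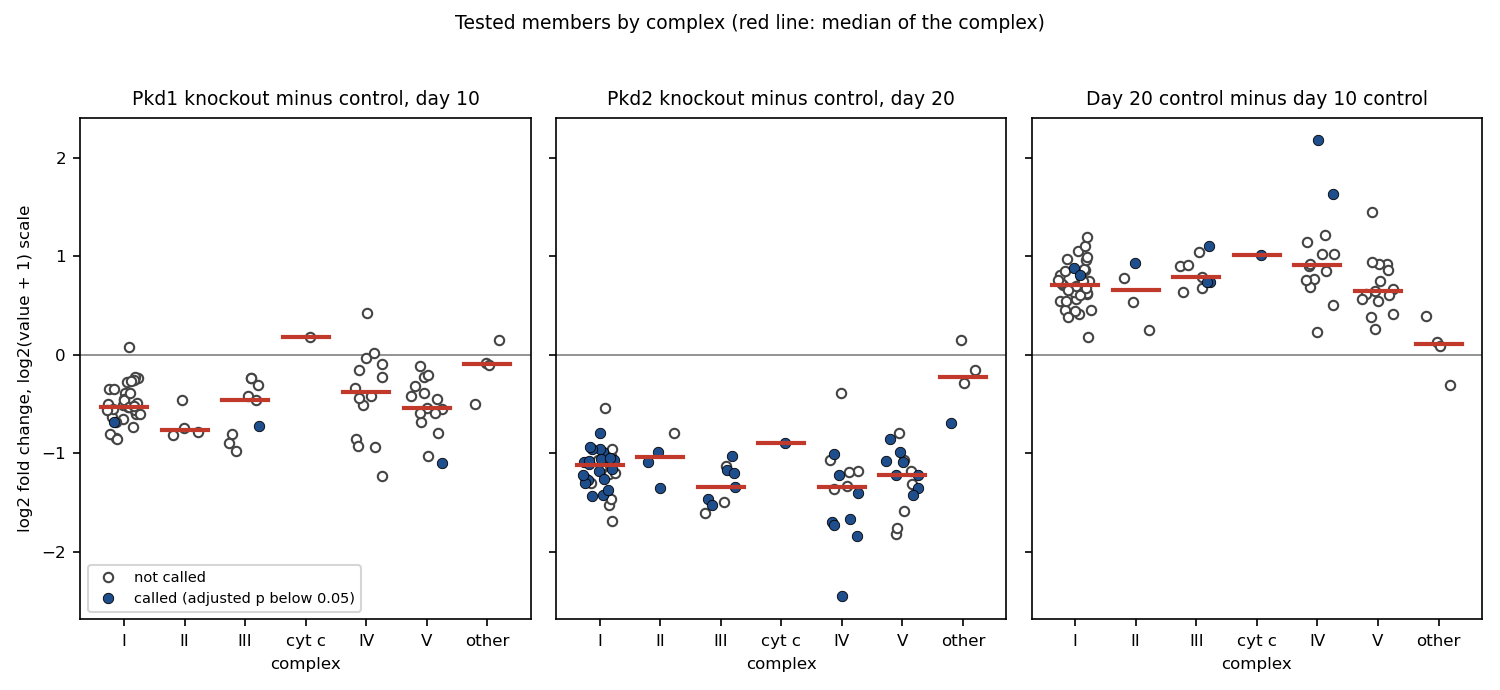
Log2 fold changes (log2(value + 1) scale) of the 82 tested members by complex in 3 comparisons. Filled points are called at an adjusted p below 0.05, open points are not, and red lines mark the median of each complex; nearly all points lie below 0 in both knockout panels and above 0 in the age panel.

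Complex I contributed 20 of the 47 calls in Pkd2 knockouts, from 35 tested subunits, and 1 in Pkd1 knockouts. The medians were -1.12 in Pkd2 knockouts and -0.53 in Pkd1 knockouts. Among those called lower in Pkd2 knockouts were Ndufs1, Ndufs3, Ndufs7, Ndufs8, Ndufv1 and Ndufv2, core subunits of which all but Ndufs3 carry a redox centre, and accessory subunits, which surround and stabilise the core.

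Ndufs1, the largest core subunit and a carrier of iron-sulfur clusters (chr1:63143596-63176833 in mm10), had values of 124 and 94.4 in Pkd2 knockouts, against 244 and 249.9 in Pkd2 controls. In the Pkd1 model it had 85.4 and 84.3 in knockouts, against 133 and 134 in controls. Both knockouts were below both controls in each model, with a log2 fold change of -1.18 ± 0.19 in the Pkd2 model (limma, adjusted p = 0.00449) and -0.65 ± 0.19 in the Pkd1 model (adjusted p = 0.0586, not called). Ndufv1, which binds NADH and its flavin, had 98.5 and 61.5 in Pkd2 knockouts, against 178 and 197 in Pkd2 controls (-1.26 ± 0.23, adjusted p = 0.00780). Its Pkd1 knockout libraries, 74.2 and 72.9, were close to each other and below the 105 and 108 of Pkd1 controls, a difference of -0.53 ± 0.23 that was not called. Ndufs8 (chr19:3908870-3912717), a core iron-sulfur subunit near the quinone site, was called in both models. It had 6.69 and 7.9995 in Pkd1 knockouts against 12.7 and 12.03 in Pkd1 controls (-0.68 ± 0.17, adjusted p = 0.0368), and 10.1 and 8.42 in Pkd2 knockouts against 18.4 and 18.6 in Pkd2 controls (-0.94 ± 0.17, adjusted p = 0.00784). The groups did not overlap in either model, and its level was low.

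Of the accessory subunits, Ndufa10, Ndufa12 and Ndufa9 sit on the matrix arm or at its joint with the membrane arm. Ndufa10 had 62.00 and 47.4 in Pkd2 knockouts, against 107 and 109.9 in Pkd2 controls (-0.98 ± 0.19, adjusted p = 0.0114). Ndufa12 had 79.4 and 51.98 in Pkd2 knockouts, against 132 and 143 in Pkd2 controls (-1.08 ± 0.22, adjusted p = 0.0117). In both, the gap between the knockout replicates was smaller than the distance to the controls. Ndufc1, a small membrane-arm subunit, had the lowest log2 fold change of complex I and was not called: its values were 44.7 and 11.8 in Pkd2 knockouts against 78.4 and 75.7 in Pkd2 controls (-1.69 ± 0.57, adjusted p = 0.0721). Here replicate 2 lay far below replicate 1. In Pkd1 knockouts the subunits of complex I ran from -0.85 to 0.08, with Ndufs4 the only positive value.

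Complex II, succinate dehydrogenase, is wholly nuclear-encoded and also works in the citric acid cycle. Sdhb, the iron-sulfur subunit (chr4:140961203-140979193), had 67.3 and 43.9 in Pkd2 knockouts, against 136 and 146 in Pkd2 controls (-1.36 ± 0.22, adjusted p = 0.00551). Sdha, the flavoprotein that oxidises succinate, had 125 and 92.2 in Pkd2 knockouts, against 219 and 239.9 in Pkd2 controls (-1.09 ± 0.26, adjusted p = 0.0229). For both, each knockout library lay below each control. The membrane anchor Sdhd was called too (-0.99 ± 0.25, adjusted p = 0.0292), and its partner Sdhc was not, with 48.7 and 29.7 in Pkd2 knockouts against 78.6 and 56.9 in Pkd2 controls (-0.80 ± 0.25, adjusted p = 0.0594). In the Pkd1 model all 4 lay below controls in both knockouts without a call by limma (3 at an unadjusted p below 0.05) or edgeR, while DESeq2 called 3. Sdha had 61.99 and 92.2 in Pkd1 knockouts, against 157 and 114 in Pkd1 controls (-0.81 ± 0.26, adjusted p = 0.0830). Sdhb had 45.9 and 41.1 in Pkd1 knockouts, against 65.9 and 81.99 in Pkd1 controls (-0.74 ± 0.22, adjusted p = 0.0699).

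In complex III, which moves electrons from ubiquinol to cytochrome c, 6 of 9 subunits were called lower in Pkd2 knockouts and 1 in Pkd1 knockouts. Uqcrc1 (chr9:108936633-108949623), a core protein that faces the matrix, had the smallest adjusted p of all members. Its values were 53.1 and 40.02 in Pkd2 knockouts, against 115 and 122 in Pkd2 controls (-1.34 ± 0.19, adjusted p = 0.00282). It had 40.5 and 44.9 in Pkd1 knockouts, against 75.5 and 66.7 in Pkd1 controls (-0.72 ± 0.19, adjusted p = 0.0420). The knockout means were 39.2% of controls in the Pkd2 model and 60.1% in the Pkd1 model, with no overlap in either. Its partner Uqcrc2 had 88.4 and 64.5 in Pkd2 knockouts, against 159.9 and 151 in Pkd2 controls (-1.03 ± 0.19, adjusted p = 0.00900).

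Of the catalytic subunits, Cyc1 (cytochrome c1) had 30.7 and 16.5 in Pkd2 knockouts, against 61.7 and 66.4 in Pkd2 controls (-1.47 ± 0.25, adjusted p = 0.00662). Uqcrfs1, the Rieske iron-sulfur protein, had 34.5 and 22.2 in Pkd2 knockouts, against 63.7 and 66.4 in Pkd2 controls (-1.20 ± 0.24, adjusted p = 0.0111). These catalytic subunits were called lower, as the core proteins were. Uqcrq and Uqcrb, small subunits near the quinone sites, were also called, with -1.53 ± 0.37 and -1.17 ± 0.32 on the log2 scale. Not called were the hinge protein Uqcrh and the smallest subunits Uqcr10 and Uqcr11, whose log2 fold changes were -1.13 ± 0.38, -1.50 ± 0.56 and -1.61 ± 0.53 with wider errors. Cycs, the soluble cytochrome c that shuttles between complexes III and IV, had 103 and 74.5 in Pkd2 knockouts, against 183 and 148 in Pkd2 controls (-0.90 ± 0.25, adjusted p = 0.0368). In Pkd1 knockouts it had 101 and 83.2 against 68.02 and 96.6 in Pkd1 controls, a positive difference of 0.18 ± 0.25 (adjusted p = 0.686) in groups that overlapped.

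Complex IV, cytochrome c oxidase, had 8 of 14 tested subunits called lower in Pkd2 knockouts and 0 in Pkd1 knockouts, where 1 passed at an unadjusted p below 0.05 and DESeq2 called 1. On the recovered reads edgeR called 2 of them in Pkd2 knockouts and DESeq2 10. Cox4i1, the general form of a regulatory subunit, had 317 and 154 in Pkd2 knockouts, against 531 and 502 in Pkd2 controls (-1.22 ± 0.33, adjusted p = 0.0361). Cox5a had 28.5 and 11.9 in Pkd2 knockouts, against 51.7 and 75.3 in Pkd2 controls (-1.70 ± 0.41, adjusted p = 0.0231). Cox5b had 145 and 43.7 in Pkd2 knockouts, against 275 and 259.6 in Pkd2 controls (-1.73 ± 0.47, adjusted p = 0.0371). Cox5a and Cox5b are structural subunits next to the catalytic core, and for both replicate 2 of the knockouts was far lower than replicate 1. Cox6c had 333 and 128 in Pkd2 knockouts, against 496 and 446 in Pkd2 controls, and this difference of -1.18 ± 0.44 was not called (adjusted p = 0.0942). Cox8a, a small subunit, had the lowest log2 fold change of the tested members in the Pkd1 model, with 47.9 and 34.7 in knockouts against 100.2 and 93.3 in controls (-1.23 ± 0.36, adjusted p = 0.0631, not called). In the Pkd2 model Cox8a was called, with 79.6 and 32.8 in knockouts against 124 and 151 in controls (-1.40 ± 0.36, adjusted p = 0.0295).

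Complex V, ATP synthase, had 8 of 15 subunits called lower in Pkd2 knockouts and 1 in Pkd1 knockouts. Atp5d, the delta subunit of the central stalk (chr10:80138632-80145818), was the member with the smallest adjusted p in the Pkd1 model. Its values were 76.6 and 68.7 in Pkd1 knockouts, against 158 and 155 in Pkd1 controls (-1.10 ± 0.26, adjusted p = 0.0323). It had 105 and 62.6 in Pkd2 knockouts, against 179 and 243 in Pkd2 controls (-1.35 ± 0.26, adjusted p = 0.0103). Knockout means were 46.5% of controls in the Pkd1 model and 39.7% in the Pkd2 model. The alpha and beta subunits form the catalytic head. Atp5a1 (alpha) had 679 and 499 in Pkd2 knockouts, against 1249 and 1220.5 in Pkd2 controls (-1.08 ± 0.26, adjusted p = 0.0233). Atp5b (beta) had 589 and 408 in Pkd2 knockouts, against 1154 and 1129 in Pkd2 controls (-1.22 ± 0.26, adjusted p = 0.0151).

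Other parts of the ATP synthase moved less evenly. Atp5c1, the gamma shaft, was called lower in Pkd2 knockouts (-0.86 ± 0.24, adjusted p = 0.0419), and so was Atp5o of the peripheral stalk (-1.22 ± 0.31, adjusted p = 0.0303). Atp5e, the epsilon subunit, showed the widest spread between replicates: it had 40.7 and 12.95 in Pkd1 knockouts against 14.7 and 42.5 in Pkd1 controls, and 50.5 and 6.94 in Pkd2 knockouts against 70.7 and 70.1 in Pkd2 controls. Its Pkd1 groups overlapped. Its difference in the Pkd2 model, -1.82 ± 0.84, was not called (adjusted p = 0.166). The membrane c ring is encoded by 3 genes that make the same mature protein from different precursors, and reads may be split among them. Atp5g1 was called (-1.42 ± 0.31, adjusted p = 0.0172), while Atp5g2 and Atp5g3 were not, at -0.79 ± 0.38 and -1.58 ± 0.49.

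Among the 4 members that are not subunits, only Atp5sl was called lower in Pkd2 knockouts (-0.69 ± 0.19, adjusted p = 0.0385). Its product takes part in building complex I. Cox7a2l, a factor that links complexes III and IV, had 96.98 and 66.8 in Pkd2 knockouts, against 105 and 92.9 in Pkd2 controls (-0.29 ± 0.22, adjusted p = 0.392). Atp5s was the one member with a positive log2 fold change in Pkd2 knockouts, 0.15 ± 0.23 at values of 2.49 or less in every library, and this was not called.

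The promoters of members that fell in Pkd2 knockouts are shown for 1 gene each of complexes I, II, IV and V and for cytochrome c, together with that of Cox8b, the tested member with the lowest log2 fold change. RefSeq windows of 250 bases before to 50 after the start, on GRCm38.p6, were matched to 67 of the 86 members. Searched on both strands were the NRF1 motif GCGCANGCG (reverse CGCNTGCGC), the ETS motif of GABPA CCGGAAG (reverse CTTCCGG), the ERR motif TCAAGGTCA (reverse TGACCTTGA) and the YY1 motif AAGATGGCG (reverse CGCCATCTT); these factors are known regulators of respiratory chain genes. The NRF1 letters read nearly alike on both strands, so 1 site can match on both. Each line below gives the 120 bases before the start on the gene's strand, with matches in capitals.
Ndufa11 (complex I, chr17:56717642-56717761, strand +): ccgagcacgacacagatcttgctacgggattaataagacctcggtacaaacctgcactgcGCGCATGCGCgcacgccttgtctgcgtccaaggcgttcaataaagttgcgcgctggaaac
Sdha (complex II, chr13:74350241-74350360, strand -): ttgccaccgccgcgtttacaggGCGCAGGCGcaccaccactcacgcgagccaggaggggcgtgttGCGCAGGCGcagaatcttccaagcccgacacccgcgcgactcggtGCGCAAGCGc
Cycs (cytochrome c, chr6:50566570-50566689, strand -): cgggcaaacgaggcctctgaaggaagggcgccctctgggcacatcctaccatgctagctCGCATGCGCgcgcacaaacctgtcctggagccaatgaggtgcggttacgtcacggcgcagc
Cox6a1 (complex IV, chr5:115348959-115349078, strand -): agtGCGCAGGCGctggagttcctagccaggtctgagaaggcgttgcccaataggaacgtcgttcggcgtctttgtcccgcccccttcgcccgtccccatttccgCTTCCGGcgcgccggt
Atp5h (complex V, chr11:115419920-115420039, strand -): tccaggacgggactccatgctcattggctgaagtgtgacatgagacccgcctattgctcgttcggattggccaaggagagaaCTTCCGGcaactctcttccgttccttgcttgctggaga
Cox8b (complex IV, chr7:140900447-140900566, strand -): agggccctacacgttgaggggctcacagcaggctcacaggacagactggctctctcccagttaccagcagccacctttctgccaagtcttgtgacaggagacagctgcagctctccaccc

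The first 5 windows were picked for holding a match. Ndufa11, Sdha, Cycs and Cox6a1 carry NRF1 letters, with 3 in Sdha, and Cox6a1 and Atp5h carry ETS letters on the reverse strand close to the start. Atp5h and Cox6a1 also have NRF1 letters farther upstream, outside the bases shown. The Cox8b window holds none of the 4 motifs. Over all matched windows, 20 of 67 members (29.9%) held the NRF1 motif, against 13.3% of the 10183 tested genes with a window and 6.47% of all 27025 windows. For the ETS motif the shares were 22.4% of members, 17.5% of tested genes and 9.12% of all windows. The YY1 motif was in 6 members (8.96%), against 3.11% of tested genes and 1.49% of all windows, and the ERR motif in 2 (Atp5g3 and Sdhd, 2.99%), against 0.246% of tested genes and 0.407% of all windows. These are matches of letters and say nothing about binding in these kidneys.

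Between the control groups the members were higher at day 20. In Pkd2 controls (day 20) against Pkd1 controls (day 10), 9 of 82 members were called higher and 0 lower (35 higher and 0 lower at an unadjusted p below 0.05), with 5.04% of all genes called higher and 7.26% lower, and 12.7% higher and 14.7% lower at the unadjusted threshold. The median log2 difference was 0.74, while that over all genes was close to 0, and 81 of 82 were positive. Both day 20 controls lay above both day 10 controls in 78 members, as did 31.1% of all genes. The 9 were Ndufs1, Ndufv1, Sdhb, Uqcrfs1, Uqcrc1, Uqcrc2, Cycs, Cox7a1 and Cox8b. All 9 were also called lower in Pkd2 knockouts, a comparison that uses the same day 20 controls, so the values are set side by side only. Age and floxed gene cannot be told apart here, and the day 10 controls differed from each other by a median of 0.29 over the members. The sex-linked RNA Xist was at 0.221 and 416 in day 10 controls, against 346 and 350 in day 20 controls. The part of sex in the age difference was not tested.

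Uqcrfs1 had 63.7 and 66.4 in day 20 controls, against 25.8 and 34.4 in day 10 controls (1.10 ± 0.24, adjusted p = 0.0183). Cycs had 183 and 148 in day 20 controls, against 68.02 and 96.6 in day 10 controls (1.01 ± 0.25, adjusted p = 0.0296). Ndufs1 had 244 and 249.9 in day 20 controls, against 133 and 134 in day 10 controls (0.88 ± 0.19, adjusted p = 0.0176). For these 3 genes both older controls were above both younger ones, with means of 184% to 216% of the younger level. The count rested on the libraries: leaving out Pkd1 control replicate 1 or either Pkd2 control left 0 called, leaving out Pkd1 control replicate 2 left 2, replacing limma by DESeq2 gave 23 (7.13% of all genes), and leaving out Pkd2 knockout replicate 1 or 2 gave 39 and 38. Set against the younger controls, Pkd2 knockout replicate 1 lay below both day 10 controls in 25 of 82 members and replicate 2 in 79.

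Several complex IV subunits come in forms that differ by tissue. Of the forms general to most tissues, Cox4i1, Cox6a1, Cox6b1 and Cox8a were called lower in Pkd2 knockouts, and Cox7a2 and Cox7b were not. Cox7a2 had 84.1 and 29.3 in Pkd2 knockouts, against 122 and 108 in Pkd2 controls (-1.19 ± 0.48, adjusted p = 0.120). The lung and hypoxia form Cox4i2 stayed at 1.21 or less, the heart and muscle form Cox6a2 at 0.443 or less, and Cox7b2 and Cox8c were listed at 0 in every library. The testis form Cox6b2 was measured at 12.4 and 5.50 in Pkd2 knockouts, against 12.1 and 10.5 in Pkd2 controls, groups that overlapped (-0.39 ± 0.30, adjusted p = 0.403); reads of Cox6b1 could be shared with it.

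Cox8b and Cox7a1, the forms of muscle and brown fat, had the lowest log2 fold changes of the 82 tested members in the Pkd2 model. Cox6a2, too low to test, had 0.0561 and 0.0231 in Pkd2 knockouts, against 0.442 and 0.441 in Pkd2 controls. Cox8b (chr7:140898943-140900446) had 1.60 and 0 in Pkd2 knockouts, against 5.95 and 10.2 in Pkd2 controls (-2.45 ± 0.52, adjusted p = 0.0142). Cox7a1 (chr7:30184171-30186028) had 4.15 and 0.856 in Pkd2 knockouts, against 8.71 and 11.7 in Pkd2 controls (-1.84 ± 0.44, adjusted p = 0.0223). In the Pkd1 model both overlapped between the groups, with Cox8b at 2.60 and 0.910 in Pkd1 knockouts and 1.78 and 0.372 in Pkd1 controls, and Cox7a1 at 3.02 and 1.33 in Pkd1 knockouts and 2.72 and 2.47 in Pkd1 controls. The 2 genes were also called higher in day 20 than in day 10 controls, by 2.18 ± 0.52 and 1.63 ± 0.44.

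Brown fat markers were called lower in the same comparison. Ucp1, the uncoupling protein that defines brown fat, had 1.71 and 0 in Pkd2 knockouts, against 15.2 and 24.4 in Pkd2 controls (-3.63 ± 0.69, adjusted p = 0.00940). It had 9.06 and 1.71 in Pkd1 knockouts, against 6.23 and 1.86 in Pkd1 controls, which overlapped. All 4 tested brown fat markers of 5 listed (Ucp1, Cidea, Plin5 and Ppargc1b) were called lower in Pkd2 knockouts by limma, 3 by edgeR and 2 by DESeq2, and Elovl3 was at or near 0 in every library. Their summed level was 6.67 and 3.26 in Pkd2 knockouts against 30.02 and 49.5 in Pkd2 controls, and 14.99 and 6.35 in Pkd1 knockouts against 16.7 and 7.89 in Pkd1 controls. Ppargc1b is also expressed outside brown fat. Of 5 white fat markers 0 were called by limma in the Pkd2 model (4 lower at an unadjusted p below 0.05, 0 by edgeR and 1 by DESeq2), where their sum was 72.2 and 25.7 in knockouts against 91.8 and 125 in controls. Among 7 markers of striated muscle 6 were too low to test, and Ckm and Myh4 were at or near 0 in every library. Of the other untested ones, Myh6 had 0 and 0.0462 in Pkd2 knockouts, against 0.130 and 0.176 in Pkd2 controls. Myl1 had 0.0841 and 0 in Pkd2 knockouts, against 0.0780 and 0.882 in Pkd2 controls. Actc1 (0.252 and 0.393 against 0.0260 and 0) and Acta1 (0.0841 and 0.0231 against 0 and 0) went the other way. All these values are near the floor. The tested one, Tnnt3, had 0 and 0 in Pkd2 knockouts, against 0.390 and 0 in Pkd2 controls. It was not called there (-0.24 ± 0.28, adjusted p = 0.598), at values too low to show a fall. With 2.27 and 0.765 in Pkd1 controls, it was called lower in day 20 than in day 10 controls (-1.03 ± 0.28, adjusted p = 0.0472). The part of fat or muscle tissue in the values of Cox8b and Cox7a1 was not tested.

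**Figure D3:**
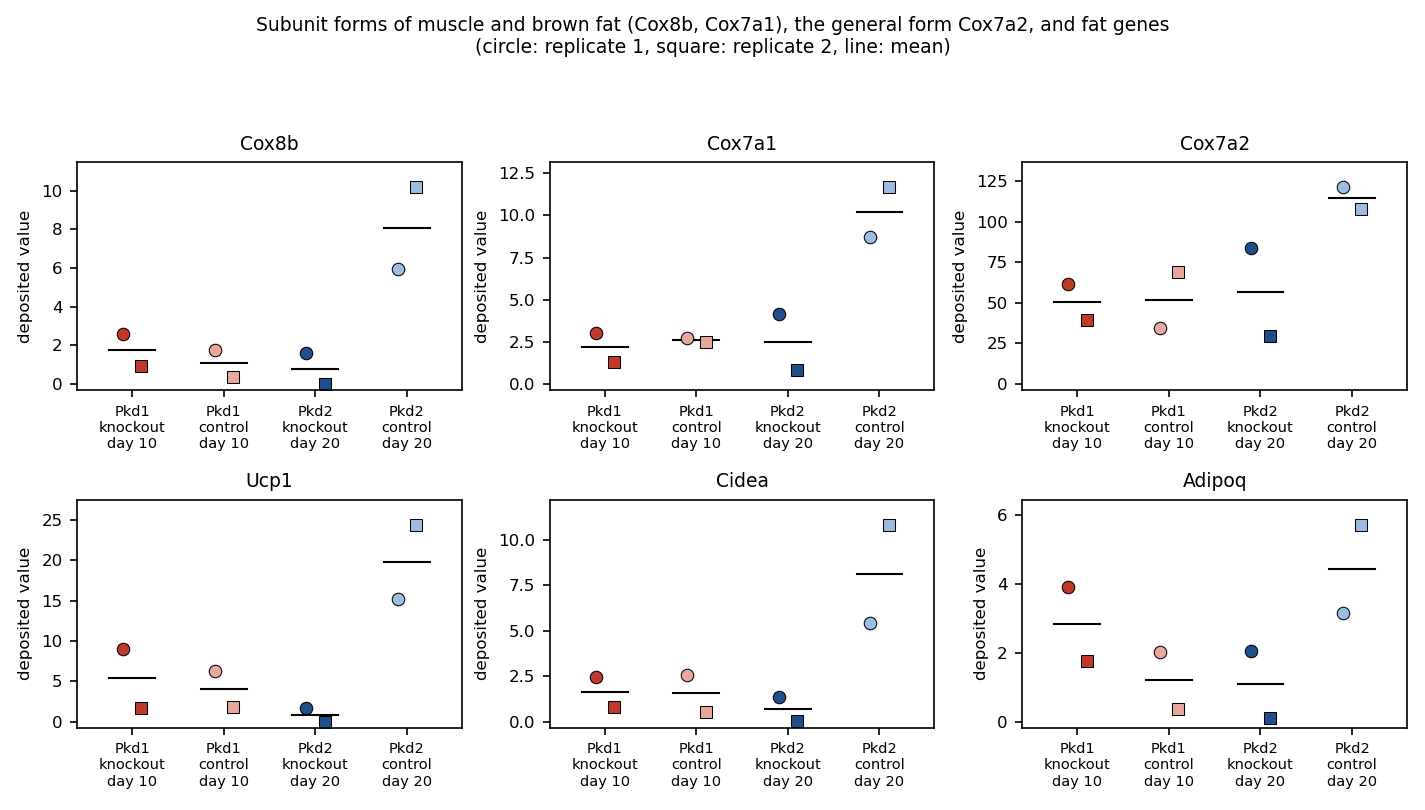
Deposited values (linear scale) of Cox8b, Cox7a1 and Cox7a2 and of the fat genes Ucp1, Cidea and Adipoq in each kidney library. Circles are replicate 1, squares replicate 2 and lines means; the mean of Pkd2 controls is the highest in every panel, and in each group the replicate with more Cox8b also has more Ucp1, Cidea and Adipoq.

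In the Pkd2 knockouts the members differed between the replicates, most of all those with short transcripts. All 82 tested members were lower in replicate 2 than in replicate 1 of the Pkd2 knockouts, with a median difference of -1.11 on the log2(value + 1) scale, while the median over all genes was close to 0. For the 47 members with a transcript under 1000 nt the median was -1.34, and for the 35 of 1000 nt or more it was -0.60. All 756 tested genes under 1000 nt had a median of -0.67, and the 12456 of 1000 nt or more had one of 0.05. The members' median thus lay below that of all genes in both length classes. Across members, Spearman's rho of this difference with transcript length was 0.68 (82 genes that share the libraries, a description). In the Pkd1 knockouts the median difference was -0.28 with a rho of 0.61, in the Pkd1 controls 0.29 with a rho of -0.38, and in the Pkd2 controls -0.02 with a rho of -0.10. The tested members have a median transcript of 870 nt, against 3060 nt for the tested genes with a length. The libraries with less small structural RNA in a group (Pkd1 knockout replicate 2, Pkd1 control replicate 1 and Pkd2 knockout replicate 2) were those with lower values of the short members, and the part of RNA size selection or quality in this was not tested.

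**Figure D4:**
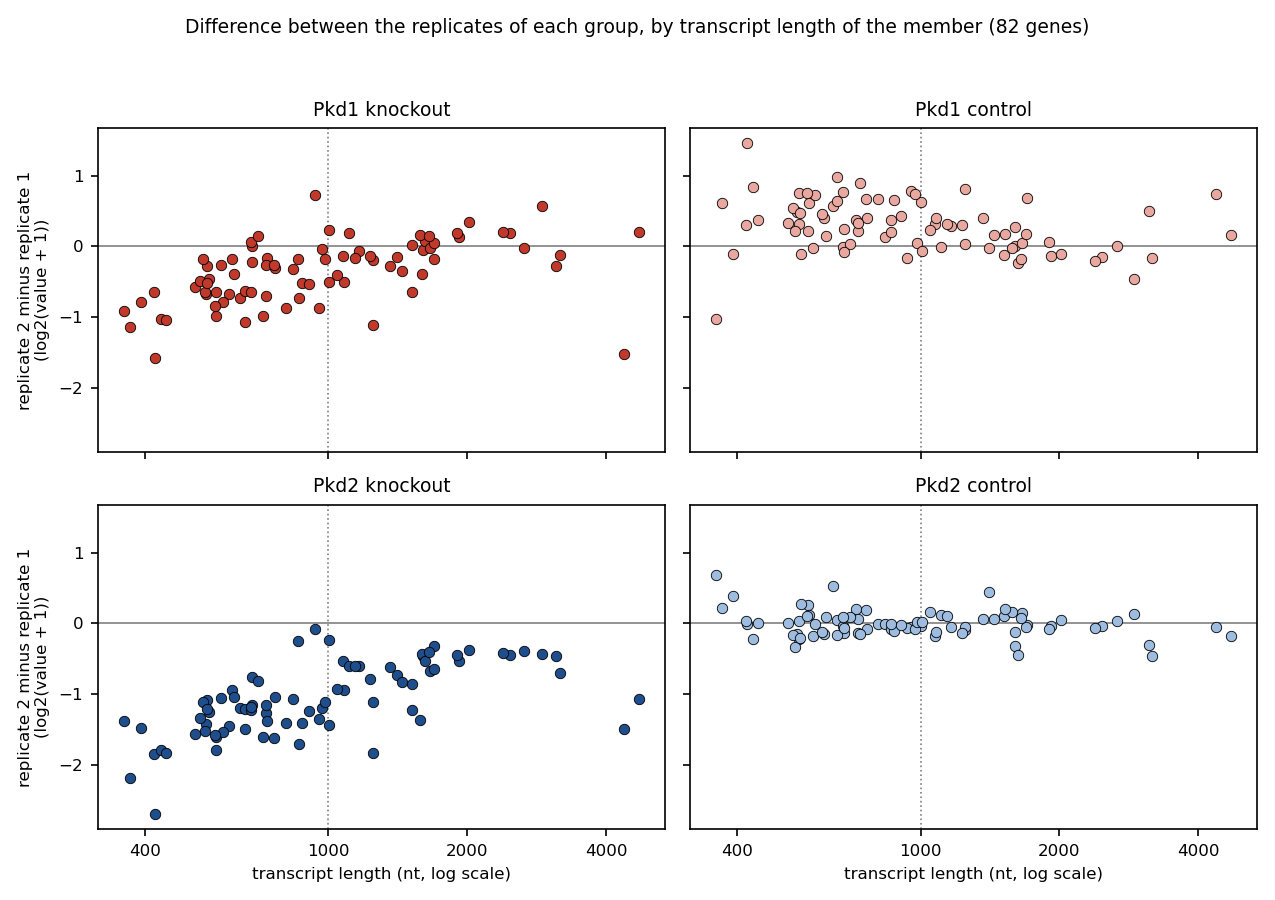
Difference of replicate 2 minus replicate 1 in log2(value + 1) for the 82 tested members in each group, against transcript length (log scale, GENCODE M21). The dotted line marks 1000 nt; in Pkd2 knockouts all points lie below 0, furthest for short transcripts, and in Pkd2 controls they scatter around 0.

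The longer members, which varied less, were called more often. In Pkd2 knockouts 27 of 35 members of 1000 nt or more were called lower, with a median of -1.08. Of the 47 shorter ones 20 were called lower, with a median of -1.22. The shares called among all genes of these lengths are not given here, so the counts are not set against them. The 3 calls in Pkd1 knockouts were all of members of 1000 nt or more. The standard error of the fit fell with transcript length (Spearman's rho -0.66 over 82 members). In an alternative chosen after seeing the data, a per-library trend on transcript length was removed. That fit held only the 13212 tested genes with a length. The medians were then -0.92 in Pkd2 knockouts, -0.40 in Pkd1 knockouts and 0.67 for day 20 against day 10 controls. It called 72, 12 and 36 members, and its share over all genes is not given here.

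The 13 mitochondrially encoded subunits, partners of these proteins in complexes I, III, IV and V, were not called by limma in any comparison. At an unadjusted p below 0.05, 9 were lower in Pkd2 knockouts and 6 in Pkd1 knockouts, where DESeq2 on the recovered reads called 6 and 5 lower and edgeR 0. Their median log2 fold change was -1.42 in Pkd2 knockouts and -1.30 in Pkd1 knockouts, and 13 of 13 were negative in each. Their summed value was 15406 and 13596 in Pkd1 knockouts against 20869.7 and 34540.5 in Pkd1 controls, and 30003 and 15076 in Pkd2 knockouts against 46807 and 48508 in Pkd2 controls. The ratio of this sum to that of the nuclear-encoded members was 3.64 and 3.55 in Pkd2 knockouts and 3.44 and 3.65 in Pkd2 controls, which overlapped. It was 2.48 and 2.56 in Pkd1 knockouts and 2.73 and 3.90 in Pkd1 controls, with both knockouts lower.

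Assembly factors, which insert cofactors and build the complexes without staying in them, had list medians nearer to 0. Of 44 tested, 5 were called lower in Pkd2 knockouts (Cox10, Foxred1, Uqcc1, Ecsit and Acad9), with a list median of -0.50, and 1 in Pkd1 knockouts (Nubpl), with a median of -0.27. These are 11.4% and 2.27% of the list, near or below the 8.13% and 5.48% of all genes called lower in the same comparisons. Cox10, which makes haem a for complex IV, had 3.78 and 3.93 in Pkd2 knockouts, against 8.29 and 7.50 in Pkd2 controls (-0.87 ± 0.19, adjusted p = 0.0171). Of the 13 enzymes of the citric acid cycle, which feeds the chain with NADH and succinate, 11 were called lower in Pkd2 knockouts and 0 in Pkd1 knockouts (7 lower there at an unadjusted p below 0.05, 1 by edgeR and 3 by DESeq2), with medians of -1.01 and -0.57. In day 20 against day 10 controls 4 enzymes of the cycle were called higher (Idh3a, Sucla2, Dld and Dlst) and 1 assembly factor (Ndufaf4). These are 30.8% and 2.27% of their lists, with 5.04% of all genes called higher.

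Cell type markers were also called in the knockout comparisons. Of 15 proximal tubule markers 11 were called lower in each model, and their sum was 4367 and 2222 in Pkd2 knockouts against 7554 and 8090.2 in Pkd2 controls, and 1015 and 1355 in Pkd1 knockouts against 3436 and 3766 in Pkd1 controls. Of 5 thick ascending limb markers 3 were called lower in each model, with sums of 1024 and 881 in Pkd2 knockouts against 4278 and 4215 in Pkd2 controls, and 325 and 508 in Pkd1 knockouts against 1098 and 889 in Pkd1 controls. All 6 macrophage markers were called higher in each model, with sums of 145 and 169 in Pkd2 knockouts against 36.2 and 37.1 in Pkd2 controls, and 98.5 and 99.2 in Pkd1 knockouts against 36.9 and 32.2 in Pkd1 controls. In Pkd2 and Pkd1 knockouts alike, 3 of 4 distal convoluted tubule markers were called lower and 3 of 6 principal cell markers higher. Called lower in Pkd2 knockouts were also 3 of 6 intercalated cell, 2 of 5 podocyte and 1 of 5 endothelial markers, and in Pkd1 knockouts 4, 3 and 3 of these lists. Of 6 fibroblast markers 3 were called higher in Pkd2 knockouts and 1 in Pkd1 knockouts. The Pkd1 values of this list were split, with 2 lower and 3 higher at an unadjusted p below 0.05 by limma. Against the calls of their lists, Cldn16 and Trpm6 had both Pkd1 knockouts above both controls, and Synpo both Pkd2 knockouts. Over all genes 8.13% were called lower and 9.54% higher in Pkd2 knockouts, and 5.48% and 5.11% in Pkd1 knockouts. The median log2 fold change of the proximal tubule markers was -1.37 in Pkd2 knockouts and -1.66 in Pkd1 knockouts. The part of cell composition in the members' values was not tested.

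In the authors' deposited table of comparisons, where the log2 change is given as control minus knockout, 54 members had an adjusted p below 0.05 in the Pkd2 model, each lower in knockouts, and 2 in the Pkd1 model (Atp5d and Cox8a). Of the 47 members called here in the Pkd2 model, 33 were among the 54 of the authors' deposited table. These are 61.1% of the authors' list and 70.2% of the calls made here. In the Pkd1 model it was 1 of 3. The 54 include Cox6a2, which was too low to test here. The share of all genes below 0.05 in the authors' table is not given here, so these counts are not set against it.

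In mIMCD-3 cells the table holds 2016 genes, each with an adjusted p below 0.05 in the authors' deposited table, so a member that is absent says nothing about its level. The gapmer used against Hoxb3os is a synthetic antisense oligonucleotide of 16 bases, shown 5′ to 3′ because the cells' changes follow its transfection.
Hoxb3os gapmer: attactgcttcttcca

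The 8 members in the table were split in direction: 3 were higher and 5 lower with the Hoxb3os gapmer. A limma fit over the table called all 8, as it did 2015 of the 2016 genes (100%), so a call reflects how the table was made. Of all genes listed, 55.6% were lower. Uqcrq, a small complex III subunit, had the smallest adjusted p of the 8: it had 5591, 5775 and 5974 in Hoxb3os gapmer libraries, against 4845 and 4530.4 in control gapmer libraries (0.30 ± 0.05 on the log2 scale, adjusted p = 5.75e-07). Cox4i1 had 14960.1, 15167 and 14626 with the Hoxb3os gapmer, against 13506 and 13759.8 with the control gapmer (0.13 ± 0.04). Cox6a1, the general form of that complex IV subunit, had 9551, 9291 and 9747 with the Hoxb3os gapmer, against 8834 and 8807 with the control gapmer (0.11 ± 0.04). For all 3, every Hoxb3os gapmer library was above every control gapmer library.

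Lower with the Hoxb3os gapmer were Atp5s, Ndufb2, Ndufb10, Sdha and Atp5g3. Atp5s had 682, 595 and 658 with the Hoxb3os gapmer, against 789 and 802 with the control gapmer (-0.30 ± 0.08, adjusted p = 0.000585). Ndufb2, an accessory subunit of complex I, had 759, 699 and 671 with the Hoxb3os gapmer, against 814 and 900.4 with the control gapmer (-0.27 ± 0.08, adjusted p = 0.00128). Sdha had 12357, 12010.4 and 11921 with the Hoxb3os gapmer, against 13127 and 13325 with the control gapmer (-0.13 ± 0.04, adjusted p = 0.00397). Ndufb10 and Atp5g3 differed by -0.18 ± 0.05 and -0.11 ± 0.04. The libraries did not overlap for any of the 8. The table holds only genes the authors called, and the share of its genes without overlap is not given here. The missing overlap therefore does not set the 8 apart from the other genes listed. The differences were small, from -18.9% to 23.3% relative to the control gapmer mean. Of the 8, Uqcrq, Cox4i1, Cox6a1, Sdha and Ndufb10 were called lower in Pkd2 knockout kidneys, so in the cells the first 3 of these went the other way and Sdha and Ndufb10 the same way.

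**Figure D5:**
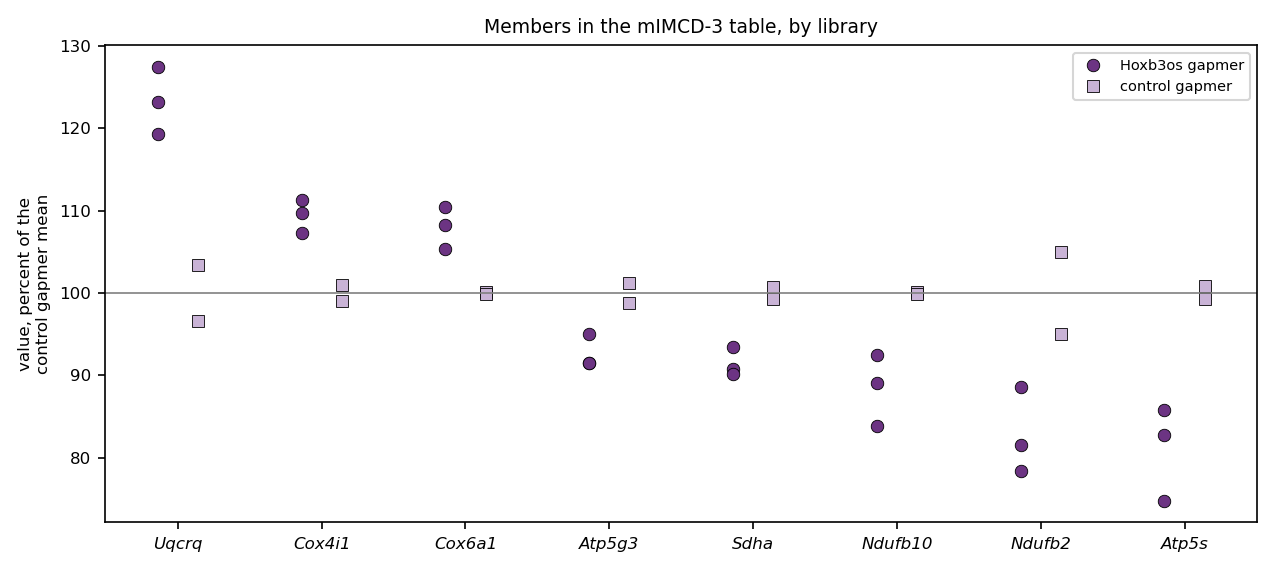
Deposited values of the 8 members in the mIMCD-3 table as percent of the control gapmer mean (vertical axis from about 70% to 130%), with circles for the 3 Hoxb3os gapmer libraries and squares for the 2 control gapmer libraries. Uqcrq, Cox4i1 and Cox6a1 lie above 100% and the other 5 below it, with no overlap between the gapmers.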

How the data were processed

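Per the labels' protocols, Trizol was used for RNA extraction and TruSeq kits for library preparation. For kidneys, RSEM 1.2.22, STAR 2.4.2a, FastQC 0.11.2, edgeR and Cufflinks 2.2.1 are listed with build mm10 in the submitters' processing notes, and for cells Trimmomatic 0.32, STAR 2.4.2a, SAMtools 1.0 and DESeq2 1.12.3 with GRCm38. The sources used here do not give the annotation or the strand setting, and reads of overlapping antisense genes cannot be told apart. The authors deposited scaled read signal per gene and library (whole multiples of 1 step, within 0.02, for 92.3% to 95.0% of kidney values; for cells, apparently divided by a size factor, with sums of 9.91 M to 10.1 M over the table). Per the file headers, the authors also deposited log2 fold changes, p-values and a likelihood-ratio score per gene, used only where the authors' table is named. Counting error of scaled values is not shown by any interval here.

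The deposited values, not counts, were tested with limma 3.58.1 in R 4.3.3 (trended eBayes) on log2(value + 1), for genes at 1 or more in at least 2 libraries, with Benjamini-Hochberg adjustment over all genes tested. All 8 kidney libraries entered 1 fit with 4 residual degrees of freedom, and the 5 cell libraries another. Reads recovered from the steps were tested with edgeR 4.0.16 and DESeq2 1.42.0, and the pipeline was tested on simulated data. Transcript lengths (GENCODE M21, GRCm38) were those of the longest principal transcript.

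Groups follow genotype and description labels; titles of the Pkd2 knockouts carry a wild-type tag that goes against these. Whether replicates came from separate animals or cultures is not given, and p-values therefore cover only the spread between libraries. Same-numbered libraries did not deviate together (correlations of -0.38 in the Pkd1 model and -0.05 in the Pkd2 model). The members, comparison lists and markers were chosen with earlier results of these data known. Members named are up to 12 called per comparison and direction by adjusted p, the 6 of largest change, a set list per complex and the paralogues, and a member named beyond these was chosen after its values were seen. Single results for some genes are not reported here.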

Additional observations from a re-analysis of the deposited data

How the results depend on the processing

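The direction of the members' medians was the same under every alternative tried. Medians ranged from -0.63 to -0.34 in Pkd1 knockouts over single libraries left out, from -1.72 to -0.66 in Pkd2 knockouts, and from 0.59 to 0.91 for day 20 against day 10 controls, where a Y-linked covariate gave 1.22. In no alternative was a member called higher in knockouts, lower at day 20, or different between the models.

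The counts moved. Leaving out 1 library gave 0 to 22 members called lower in Pkd1 knockouts, 2 to 78 in Pkd2 knockouts and 0 to 39 higher at day 20. Without a filter on low values they were 0, 16 and 2, and with each model fitted alone 10, 14 and 57. DESeq2 gave 12, 64 and 23, and edgeR 3, 32 and 6. A covariate of small structural RNA gave 28, 75 and 50, one of Y-linked genes 20, 68 and 13, removal of the length trend 12, 72 and 36, and quantile scaling 4, 32 and 3. With the replicate number as a block they were 0, 42 and 4; the samples share only a number. Crossing the Pkd1 numbers in the block, chosen after seeing the data like the length trend, gave 1, 65 and 7. In cells the block kept 6 of 8 members called, and leaving out 1 library 6 to 8. The share of all genes called is not given here for most of these fits, so the counts are not set against it. The cause of these moves was not tested.

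Single members changed the sign of their log2 fold change where their main value was not called. In Pkd1 knockouts, leaving out 1 library gave Atp5g2 -0.58 to 0.12, Cox6b1 -0.35 to 0.049, Cox6b2 -0.16 to 0.093, Cox6c -0.55 to 0.36, Cox7a1 -0.62 to 0.16, Cox7a2 -0.47 to 0.51, Cox7a2l -0.26 to 0.060, Cox8b -0.083 to 0.94, Cycs -0.074 to 0.43 and Ndufa4l2 -0.21 to 0.51. Cox6b2 was 0.000855 with quantile scaling, and without the length trend it was 0.081 and Cox6c 0.0086. Cox7a2 was -0.016 without mitochondrially encoded genes, -0.048 by edgeR, -0.031 by DESeq2, -0.187 with the Y-linked covariate and -0.081 with that of small structural RNA. In Pkd2 knockouts, Cox6b2 was -0.92 to 0.13 with 1 library left out and 0.0057 without the length trend, where Ndufa4l2 was 0.10. At day 20, Cox7a2l was -0.060 with quantile scaling and -0.073 to 0.25 with 1 library left out. The difference between the models for Atp5k was -0.0070 to 2.18. The planned edgeR test of the cells was not run because whole reads could not be recovered. With 2 libraries a group, 1 library decides many calls, and members with short transcripts are measured with wider errors.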
